A study of Mus musculus with 4 samples.

Results

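The genes described here encode the nuclear subunits of the mitochondrial respiratory chain and of ATP synthase, together with cytochrome c. They were chosen by gene symbol: symbols that start with Ndufa, Ndufb, Ndufc, Ndufs, Ndufv, Uqcr, Cox4i, Cox5, Cox6, Cox7, Cox8 or Atp5, with Sdha, Sdhb, Sdhc, Sdhd, Cyc1 and Cycs. This gave 184 of 45037 probe sets and 92 of 18193 named genes. A probe set is the group of short probes with which an Affymetrix array reads 1 transcript. The symbols that start with Ndufaf belong to 8 assembly factors of complex I, which help to build the complex and are not part of it, and these are given apart.

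Total RNA came from mouse hippocampus at postnatal day 2 and was hybridised to 4 arrays. Of these, 2 carried hippocampus of pups labelled Zbtb20 knockout, and 2 that of littermates labelled wildtype, called control below. Zbtb20 encodes a zinc finger transcription factor, and the study looked for genes that depend on it while the hippocampus forms. The kind of knockout allele, the strain and the number of animals behind each array are not given in the sources used here.

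The respiratory chain moves electrons from NADH and succinate to oxygen. Complexes I, III and IV pump protons across the inner mitochondrial membrane while they do so, and ATP synthase, also called complex V, lets the protons flow back and makes ATP. Cytochrome c carries electrons from complex III to complex IV. Most subunits are encoded in the nucleus and a few in mitochondrial DNA, and neurons rely on this pathway for most of their ATP. The subunits encoded in mitochondrial DNA were not analysed here.

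Signals of the replicate 1 arrays were on another scale than those of replicate 2, with trimmed means of 497 to 498 against 156 to 158, so each replicate number held 1 array of each group on 1 scale. Differences were therefore taken within a replicate number, as knockout minus control on the scale log2(signal + 32.56), and are called pair 1 and pair 2. Each is 1 array against 1 array, with no replicate check and no p-value, and whether pair 1 and pair 2 differ could not be tested. Of the 9 Zbtb20 probe sets, 3 were lower in the knockout array of pair 1 and 2 in that of pair 2. None, 0 of 9, was lower in both, where 24% of all measured genes were. The brightest was at 0.01 in pair 1 and 0.16 in pair 2, so this gene did not bear out the genotype labels. Of 10 measured marker genes of hippocampal and pallial neurons, such as Neurod6, Bcl11b and Tubb3, the median signal lay between percentiles 95.3 and 98.2 of each array. Most hepatocyte markers were brighter on the replicate 1 arrays: over 17 genes the median percentile was 90.9 on control and 71.9 on knockout, against 19 and 20 in replicate 2, and 15 of 16 measured genes were lower in the knockout array of pair 1 (median log2 -1.89). Ttr, which choroid plexus also expresses, was the exception, with 62551 (control) and 74106 (knockout) in replicate 1 and 3505 and 9232 in replicate 2. The summed signal of all 17 was 130931 and 97141 in replicate 1 and 4203 and 9931 in replicate 2. Without Ttr it was 68381 and 23035 in replicate 1 and 698 and 699 in replicate 2, and the part of these transcripts in the pair 1 values was not tested. Xist was at 2994 and 4093 in replicate 1 against 36.3 and 39.9 in replicate 2, and Eif2s3y, which is Y-linked, was at 304.5 (control) and 10.7 (knockout) in replicate 1 and at 714.0 and 830.1 in replicate 2. The part of these differences in the members' values was not tested.

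Respiratory chain genes were nearly all lower in the knockout array of replicate 2, and close to equal in replicate 1. Of 86 genes measured above the filter on dim signals, 81 were lower in pair 2, where 50.1% of all 12581 measured genes were lower. The median difference of the 86 genes in pair 2 was log2 -0.48, a knockout to control ratio of 0.719, against a median of -0.000630 over all measured genes. Only 4% of all measured genes lay below that median of the members. In pair 1 the members' median was log2 -0.02, and 51 of the 86 were lower, against 51.4% of all genes. In both pairs 50 of 86 members were lower (24% of all genes) and 4 were higher (22.4% of all genes), while 31 had a higher value in the knockout array of pair 1 and a lower one in that of pair 2 (26.1% of all genes). The pair 2 value was below the pair 1 value for 83 members, where this held for 50.6% of all genes.

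**Figure D1:**
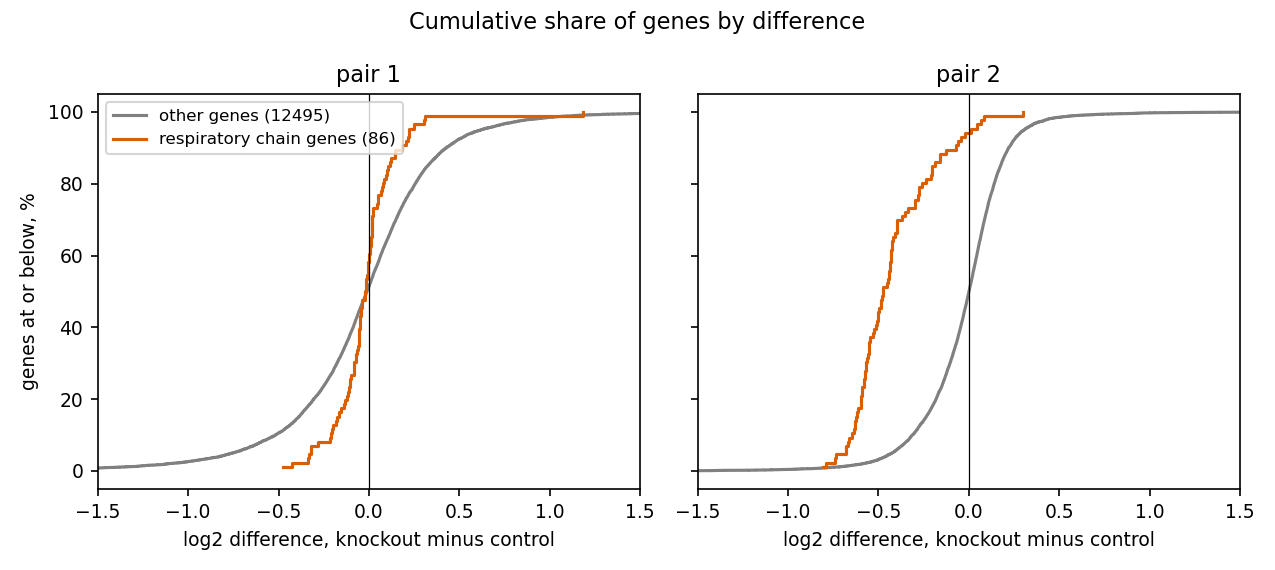
Cumulative share of genes, in percent, that lie at or below each log2 difference between knockout and control, for 86 respiratory chain genes (orange) and the 12495 other measured genes (grey), in pair 1 (left) and pair 2 (right). In pair 1 the orange curve is steeper than the grey and crosses 0 near its middle, while in pair 2 it is shifted to the left, with a median of -0.48.

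Past a 1.5-fold difference, members were again mostly on the lower side of pair 2. There, 20 members were over 1.5-fold lower, where 2.17% of all genes were, and 0 members were over 1.5-fold higher, where 1.01% of all genes were. In pair 1, 0 members were over 1.5-fold lower (8.29% of all genes) and 1 was over 1.5-fold higher (5.51% of all genes), the dim gene Ndufa4l2. Past 2-fold, 0 members were lower in pair 1 (2.58% of all genes) and 0 in pair 2 (0.405% of all genes). On the higher side, only Ndufa4l2 was past 2-fold in pair 1 (1.49% of all genes), and no member was in pair 2 (0.254% of all genes). In pair 1 the middle 50% of the members lay between -0.10 and 0.05, against -0.23 and 0.20 for all genes and -0.10 and 0.14 for genes above the 90th percentile of mean level, where most members lie. Of the 1258 genes above that percentile, members included, only 20 were over 1.5-fold lower and 21 over 1.5-fold higher in pair 1. In pair 2 the middle 50% of members lay between -0.58 and -0.30, and that of all genes between -0.14 and 0.11.

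The members' summed signal was also taken as a share of the signal of all measured genes. In replicate 1 it was 3.55% (control) and 3.47% (knockout), and in replicate 2 it was 2.59% and 1.96%. The knockout array of replicate 2 thus gave the lowest share of the 4 arrays. This rests on 1 array. Its RNA quality was not analysed here, since the table used held 0 of the manufacturer's control probe sets. In bulk tissue, fewer cells of a type and less RNA per cell cannot be told apart.

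No member passed limma's test of knockout against control over the 4 arrays. Fitted without the replicate number, limma called 0 of 159 member probe sets and 0% of 27022 probe sets at an adjusted p of 0.05, with 0 members and 5 probe sets in all (0.0185%) at an unadjusted p under 0.05. The difference between the scales entered the error of that fit. Fitted with the replicate number as a block, it called 0 members and 0% of all probe sets, and 12 of 159 member probe sets, all lower in knockout, had an unadjusted p under 0.05, against 1.22% of all probe sets. The smallest adjusted p among members there was 0.9999, and the fit had 1 residual degree of freedom.

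**Figure D2:**
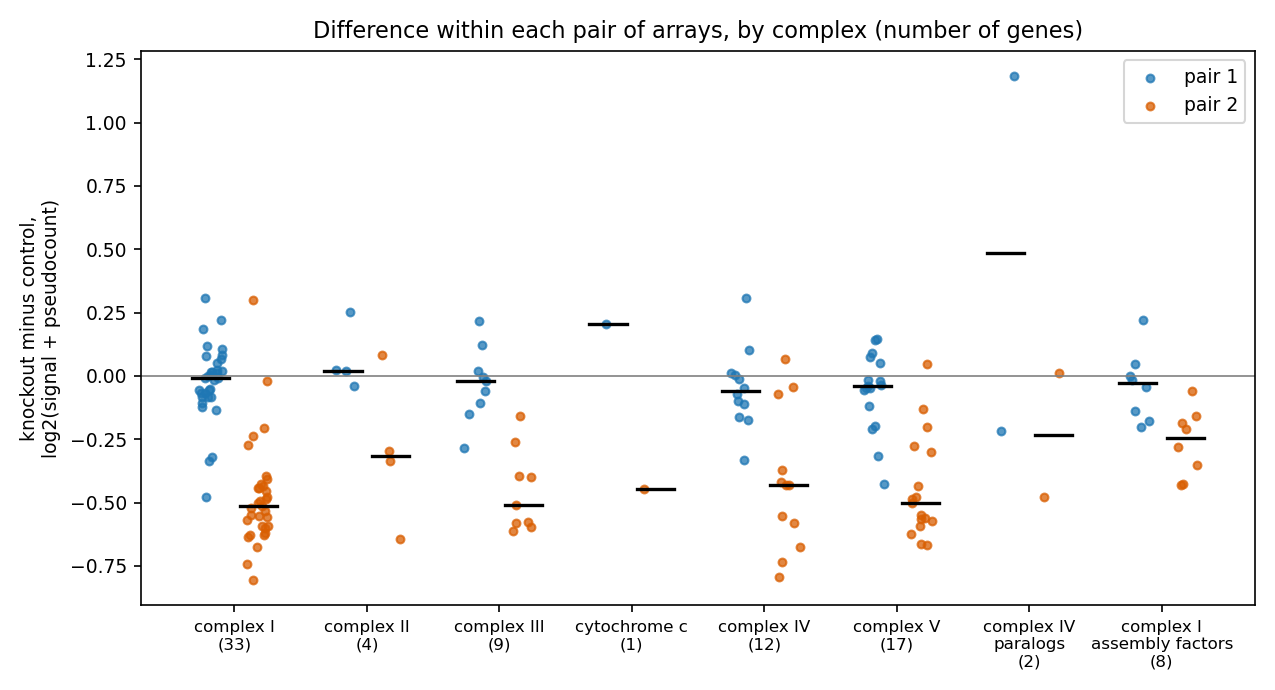
Difference between knockout and control on the log2(signal + pseudocount) scale for each measured gene, grouped by complex, with the number of genes in brackets. Blue points are pair 1, orange points pair 2, and black bars are medians; the pair 1 medians of complexes I to V lie between -0.06 and 0.02 and their pair 2 medians between -0.51 and -0.32.

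Complex I takes electrons from NADH, and it gave the largest group, with 33 of 34 genes measured. In pair 2, 32 of the 33 were lower, with a median of -0.51 and a range from -0.81 to 0.30. In pair 1 the median was -0.00750, and 17 were lower. The 6 core subunits, which hold the flavin and iron-sulphur clusters that pass electrons along, had a pair 2 median of -0.51, and the 27 measured accessory subunits, which surround and stabilise the core, also had -0.51.

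Among the core subunits, the pair 2 differences were not alike. Ndufs8, which holds iron-sulphur clusters near the quinone site, had signals of 719 (control) and 466 (knockout) in replicate 2 and of 8725 and 8838 in replicate 1 (pair 2 difference log2 -0.59, pair 1 0.02). The knockout array was the lower in replicate 2 and about level with the control in replicate 1. Ndufs7 and Ndufs3, its neighbours near the quinone site, were at -0.57 and -0.56 in pair 2 and at -0.11 and -0.13 in pair 1. Ndufv2 was at -0.45 and Ndufv1, which binds the flavin and NADH, at -0.21 in pair 2. Ndufs1, a large iron-sulphur subunit, had 633 and 623 in replicate 2 and 2658 and 2817 in replicate 1. It was thus almost level in both pairs, at 0.08 in pair 1 and -0.02 in pair 2.

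The accessory subunits held the lowest and the highest pair 2 values among the members. Ndufv3, a small subunit beside the flavin site, had 2069 on control and 1169 on knockout in replicate 2, and 7201 and 7130 in replicate 1. Its difference of -0.81 in pair 2 was the lowest among the members, and its pair 1 difference was -0.01. In the limma fit with the replicate block the mean difference of Ndufv3 was -0.41 ± 0.22 (SE, n = 2 per group, adjusted p 0.9999). Ndufa13, also known as GRIM-19, had 1187 and 697 in replicate 2 and 8038 and 8411 in replicate 1, at 0.07 in pair 1 and -0.74 in pair 2. Also over 1.5-fold lower in pair 2 were Ndufa3 (-0.68), Ndufc1 (-0.63), Ndufb11 (-0.63), Ndufb2 (-0.63), Ndufa1 (-0.62), Ndufb8 (-0.60) and Ndufa12 (-0.59). Of these, Ndufa3 was at -0.34 in pair 1 and the others lay between -0.08 and 0.08. Ndufa2, an accessory subunit of the arm that takes up NADH, was the lowest member of pair 1, with 4409 and 3160 in replicate 1 and 955 and 640 in replicate 2. It was lower in both knockout arrays, at -0.48 and -0.55.

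Ndufs5, an accessory subunit on the intermembrane side of complex I, went against the rest. Its signal was 3057 on control and 3797 on knockout in replicate 1, and 519 and 646 in replicate 2. Both knockout arrays were higher than their controls, by log2 0.31 in pair 1 and 0.30 in pair 2, and no other gene of complex I was higher in pair 2. In the limma fit with the replicate block its difference was 0.30 ± 0.16 (SE, n = 2 per group, adjusted p 0.9999), so it did not pass the test. This gene was singled out after its values were seen, and 1 probe set represented it.

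The 8 assembly factors of complex I were lower in pair 2 too, though by less. All 8 were lower in the knockout array, with a median of -0.24, from -0.43 for Ndufaf2 to -0.06 for Ndufaf7. In pair 1 the median was -0.03, with Ndufaf8 at 0.22 and Ndufaf7 at -0.20.

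**Figure D3:**
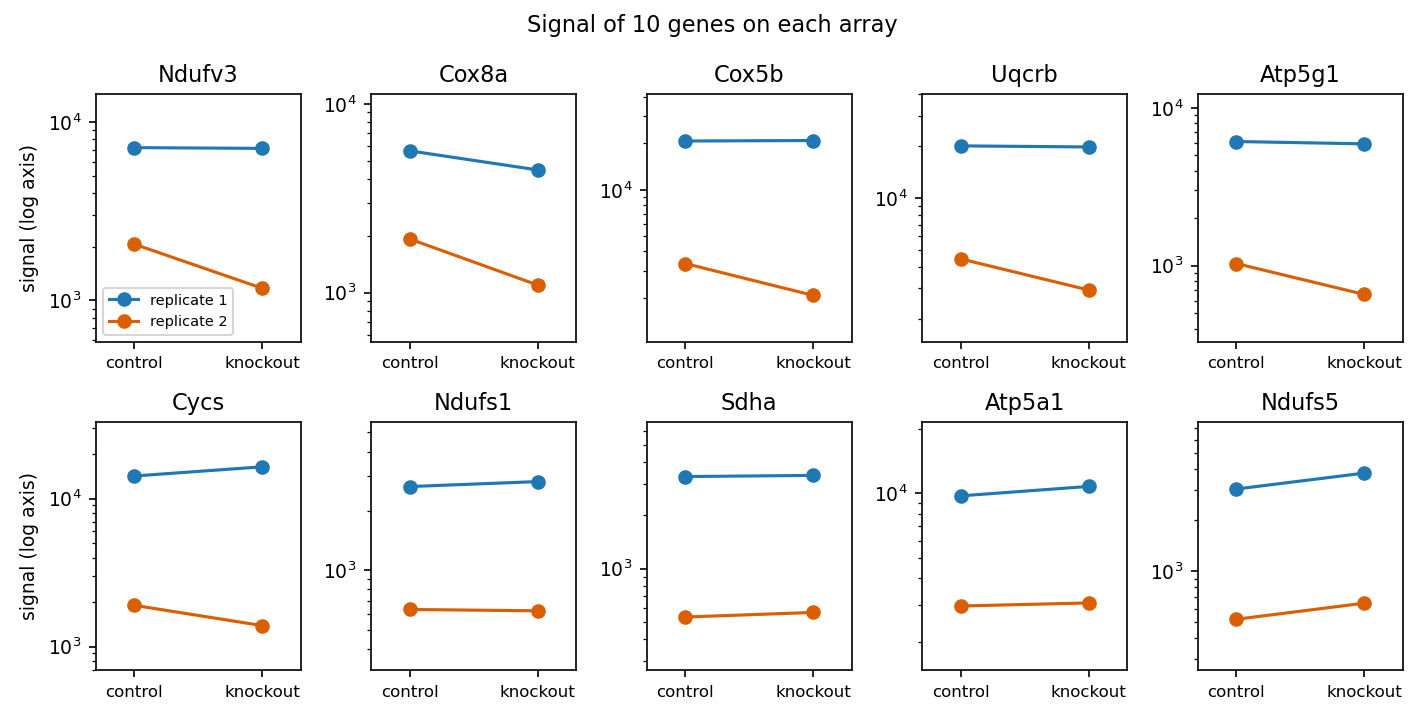
Signal on a logarithmic axis for 10 genes on the control and knockout arrays of replicate 1 (blue) and replicate 2 (orange), each gene on its own axis. Ndufv3, Cox8a, Cox5b, Uqcrb, Atp5g1 and Cycs slope down in replicate 2, Ndufs1, Sdha and Atp5a1 are nearly flat there, and Ndufs5 slopes up in both replicates.

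Complex II links the chain to the tricarboxylic acid cycle by oxidising succinate, and its subunits are all nuclear-encoded. The 4 genes spanned the widest pair 2 contrast within a small complex. Sdhc, a membrane anchor, had 505 and 312 in replicate 2 and 1574 and 1880 in replicate 1, and differed by 0.25 in pair 1 and -0.64 in pair 2. Sdhb, the iron-sulphur subunit, was at 0.02 and -0.34, and Sdhd, the other anchor, at -0.04 and -0.30 (pair 1 0.20 when its probe sets were averaged). Sdha, the flavoprotein that binds succinate, had 531 and 564 in replicate 2 and 3318 and 3369 in replicate 1. It was at 0.08 in pair 2, which turned to -0.01 when its 2 kept probe sets were averaged, so no direction is given for it.

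Complex III hands electrons from quinol to cytochrome c, and all 9 of its measured genes were lower in the knockout array of pair 2 (median -0.51). In pair 1 their median was -0.02, which turned to 0.02 when probe sets of a gene were averaged. Uqcrb, a quinone-site subunit, had 4439 and 2928 in replicate 2 and 20091 and 19806 in replicate 1, at -0.59 in pair 2. The control array of replicate 2 was the higher, and both arrays of replicate 1 were close. Uqcr11 was the lowest at -0.61, and Uqcrq (-0.58), Uqcrh (-0.58), Cyc1, which carries the haem of cytochrome c1 (-0.51), Uqcr10 (-0.40) and Uqcrfs1, the Rieske iron-sulphur protein (-0.40), lay between. Uqcrc1 and Uqcrc2, the large matrix-side proteins of the complex, were the closest to level in pair 2, at -0.26 and -0.16 (-0.05 for Uqcrc2 under quantile normalization).

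Cycs, which encodes somatic cytochrome c, had opposite signs in the pairs. Its signal was 14217 on control and 16402 on knockout in replicate 1, and 1903 and 1388 in replicate 2. The knockout array was the higher in replicate 1 and the lower in replicate 2, at 0.21 and -0.45.

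Complex IV, cytochrome c oxidase, passes the electrons to oxygen. Its 10 genes of general subunits, with Ndufa4 counted here because its protein is now placed in this complex, were all lower in pair 2 (median -0.49) and had a pair 1 median of -0.06, with 7 lower. Cox8a, a small membrane subunit, had 1925 and 1097 in replicate 2 and 5636 and 4466 in replicate 1. It was lower in both knockout arrays, at -0.33 and -0.79, and in the limma fit with the replicate block at -0.56 ± 0.18 (SE, n = 2 per group, adjusted p 0.9999). Cox6b1, which faces the intermembrane space, had 2292 and 1365 in replicate 2 and 22320 and 20865 in replicate 1, at -0.10 and -0.73. Cox5b, a zinc-binding subunit, had 3335 and 2074 in replicate 2 and 20684 and 20836 in replicate 1, at 0.01 and -0.68. These 3 genes had the lowest pair 2 values of the complex. Cox7a2 was at -0.58, Cox6c at -0.55, Cox4i1 at -0.43, Ndufa4 at -0.43, Cox5a at -0.42 and Cox6a1 at -0.37 in pair 2. Cox7c, which had 1 kept probe set with signals of 70.5 to 228, was at -0.04.

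Several complex IV subunits come in a general form and a form of particular tissues, and most tissue forms were dim here. The heart and muscle forms Cox6a2, Cox7a1 and Cox8b, the lung form Cox4i2 and the testis form Cox7b2 did not pass the filter on dim signals. Ndufb4 of complex I, read by 1 dim probe set, was the only other of the 6 genes that did not. Cox4i2 had 34 and 49.2 in replicate 1 and 55.1 and 70.0 in replicate 2, and Cox7a1 had 69.7 and 80.3 and then 50.3 and 42.3. Such values lie at the dim end of each array and carry no direction. Of the testis forms, Cox6b2 was at 0.31 and -0.07 and Cox8c at -0.17 and 0.07. The pair 1 value of Cox8c turned to 0.21 when its probe sets were averaged. The probe set that stood for Cox8c was not dim, at percentiles 58.3 to 59.7 in replicate 1 and 77.6 to 78.3 in replicate 2. Differences of dim genes are understated on this scale. Striated muscle markers, fixed as a list of 12 genes, were dim as well, with 2 of 12 passing the filter and median percentiles of 18.2 to 35.1.

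A pair of paralogs stood apart from the subunits. Ndufa4l2, a paralog of Ndufa4 that is known to be induced by low oxygen, had 74.3 on control and 210 on knockout in replicate 1, and 55.2 and 56.0 in replicate 2. Only the knockout array of replicate 1 was high, and the differences were 1.18 and 0.01 (limma with the replicate block 0.60 ± 0.35, SE, n = 2 per group, adjusted p 0.9999). Cox7a2l, which helps complexes III and IV associate into supercomplexes, was at -0.22 and -0.48.

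ATP synthase, complex V, has a head that makes ATP, a ring of c subunits that turns with the proton flow, and a stalk that holds the head still. Of its 17 genes, 16 were lower in the knockout array of pair 2, with a median of -0.50, and 12 were lower in pair 1, with a median of -0.04. The 4 genes of the peripheral stalk were the most alike in pair 2: Atp5o was at -0.57, Atp5j at -0.55, Atp5h at -0.49 and Atp5pb at -0.43, and in pair 1 they lay between -0.05 and 0.05.

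The c ring has 3 genes, Atp5g1, Atp5g2 and Atp5g3, which encode the same mature protein with different mitochondrial import sequences. Atp5g1 had 1033 and 658 in replicate 2 and 6124 and 5918 in replicate 1. Atp5g2 had 700 and 452 in replicate 2 and 9091 and 7850 in replicate 1, and Atp5g3 had 5343 and 4406 and 19646 and 20697. All were lower in the knockout array of replicate 2, with differences of -0.63, -0.59 and -0.28, while in pair 1 they were at -0.05, -0.21 and 0.08. Of the other membrane subunits, Atp5j2 was at -0.67, Atp5md at -0.57, Atp5mpl at -0.50, Atp5k at -0.48 and Atp5l at -0.20 in pair 2. Atp5mpl was also the lowest gene of the complex in pair 1, at -0.43.

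In the head and central stalk the pair 2 values ran from low to level. Atp5e, the small epsilon subunit, had 815 and 502 in replicate 2 and 7003 and 5610 in replicate 1, and was lower in both knockout arrays, at -0.32 and -0.66. Atp5d was at -0.56 and Atp5c1, the rotating shaft, at -0.30 in pair 2. The catalytic beta subunit Atp5b was at 0.09 and -0.13. Its partner Atp5a1, the alpha subunit, had 2965 and 3064 in replicate 2 and 9740 and 10784 in replicate 1. By this probe set neither knockout array was lower (0.15 and 0.05). The 3 kept probe sets of Atp5a1 lay between -0.09 and 0.15 in pair 1 and between 0.05 and 0.33 in pair 2. No direction is therefore given for it in pair 1.

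Several bright genes that were nearly level in pair 2 encode large subunits. Ndufs1 of complex I, Sdha of complex II, Uqcrc2 of complex III, and Atp5a1 and Atp5b of complex V lay between -0.16 and 0.08, where the members' median was -0.48. Other genes in that range were Cox6b2, Cox7c, Cox8c and Ndufa4l2, all less bright than these, and the assembly factors Ndufaf4 and Ndufaf7. This grouping was made after the values were seen and was not tested, and transcript lengths were not analysed here.

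**Figure D4:**
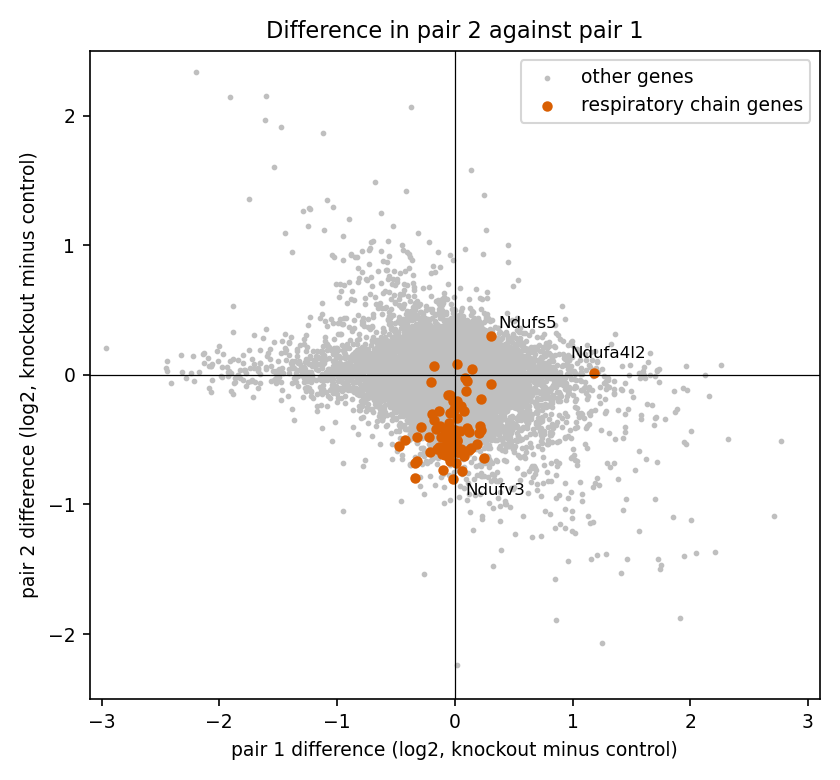
Difference between knockout and control in pair 2 (vertical, log2) against pair 1 (horizontal, log2) for the respiratory chain genes (orange) and all other measured genes (grey). The orange points lie below 0 on the vertical axis in 81 of 86 cases and close to 0 on the horizontal axis, with Ndufs5 above both and Ndufa4l2 far to the right.

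Probe sets of the same gene mostly gave like values in pair 2, with exceptions. Of 47 genes with at least 2 kept probe sets, 44 had 1 sign throughout in pair 2 and 20 in pair 1, and the median range between a gene's probe sets was 0.11 in pair 2 and 0.19 in pair 1. Counted singly, 149 of 159 kept member probe sets were lower in pair 2. Cox5b had 4 bright probe sets, which lay between -0.85 and -0.68 in pair 2 and between -0.11 and 0.05 in pair 1. For Ndufs8 the 6 kept probe sets lay between -0.59 and -0.48 in pair 2 but between -0.85 and 0.42 in pair 1. The widest pair 2 ranges were those of Ndufb2 (-0.63 to 0.05), Atp5j2 (-0.69 to -0.02) and Ndufa3 (-0.71 to -0.12). In each of these the highest value came from a dim probe set. The 2 bright probe sets of Cox6a1 also differed in pair 2, at -0.37 and -0.76. The 46 kept probe sets whose names end in _s_at or _x_at, which may also read related transcripts, had a pair 2 median of -0.49, and the other 113 had -0.44. Near-identical copies and processed pseudogenes are common for these genes, so single values from such probe sets are uncertain.

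The members were among the brightest genes of the arrays, and bright genes as a whole were slightly lower in pair 2. Of the 86 members, 66 lay above the 90th percentile of mean level among measured genes. Above that level the 1192 genes that are no members had a pair 2 median of -0.08, and the 66 members -0.51. In pair 1 these medians were 0.03 and -0.04. Of the 1192 genes, 732 (61.4%) were lower in pair 2 and 43 were over 1.5-fold lower. Of the 66 members, 65 were lower in pair 2 and 19 were over 1.5-fold lower. Quantile normalization, which gives all arrays 1 distribution of signals, left the members' pair 2 median at -0.41 with 81 of 87 lower, and centring on the 75th percentile gave -0.49.

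**Figure D5:**
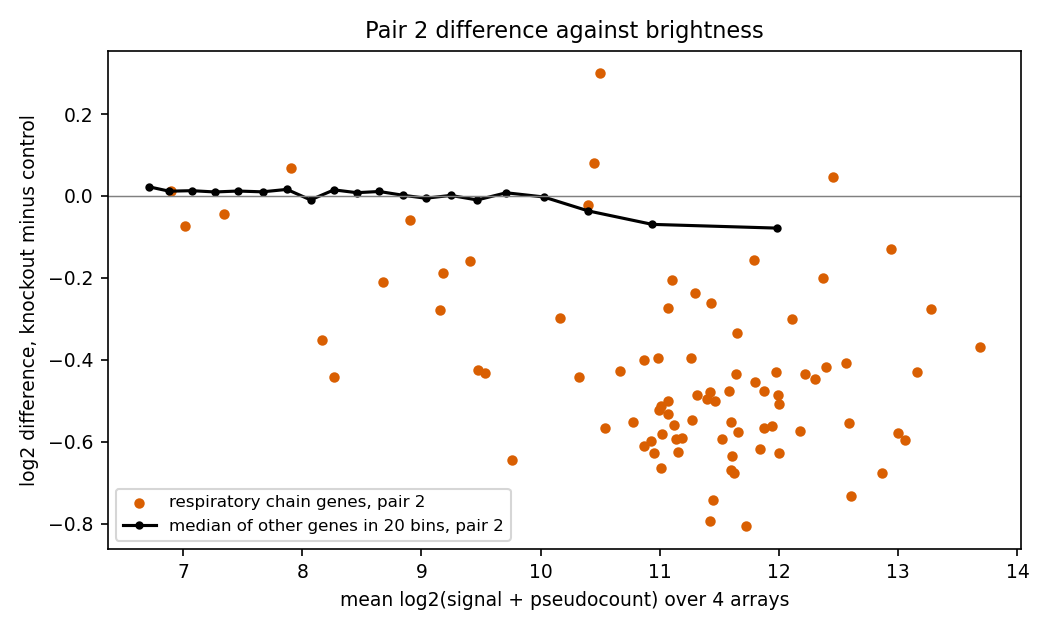
Pair 2 difference between knockout and control (log2) of each respiratory chain gene (orange) against its mean log2(signal + pseudocount) over the 4 arrays, with the median of all other genes in 20 bins of equal size (black). The black line stays between -0.08 and 0.02, and most orange points at the bright end lie between -0.8 and -0.2.

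Other families of highly expressed housekeeping genes were also lower in pair 2, by less. These families were chosen after values of these data were seen. Of 45 measured genes of cytosolic ribosomal proteins, 43 were lower in pair 2 (median -0.23), and of 36 proteasome subunit genes, 34 were lower (median -0.25). Their pair 1 medians were -0.11 and 0.07. Chaperonin subunit genes (7 measured) had a pair 2 median of -0.03 and the genes whose symbols start with Eif (46 measured) -0.01. The families thus differed among themselves in pair 2, and no test was run on that.

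Enzymes next to the respiratory chain in energy metabolism were closer to level. Of 17 measured genes of the tricarboxylic acid cycle and pyruvate oxidation, 14 were lower in pair 2 with a median of -0.10, and 0 were over 1.5-fold apart in either pair. Pdha1, a subunit of pyruvate dehydrogenase, was at 0.52 and -0.10, and Pdhb, another of its subunits, at 0.26 and -0.25. Pcx, pyruvate carboxylase, was at -0.45 and 0.14, and Fh1, fumarase, at -0.28 and -0.22. Of 14 glycolytic genes, 13 were lower in pair 2 with a median of -0.19. Hk2, a hexokinase, was at 0.69 and -0.20, Aldoa, an aldolase, at 0.11 and -0.48, and Tpi1, triose phosphate isomerase, at -0.11 and -0.44. Of 48 genes for assembly of the complexes, 8 of which are the members named above, 42 were lower in pair 2 with a median of -0.22, and 3 were over 1.5-fold lower (2.17% of all genes): Cox17, a copper chaperone of complex IV, at -0.63, Fmc1 at -0.60 and Ttc19 at -0.59. Sdhaf3, which helps to mature complex II, was at 0.35 and -0.43, and Coa3 at -0.21 and -0.50. Cox15, at 0.69 and 0.03, was the only 1 of the 48 over 1.5-fold higher in pair 1 (5.51% of all genes). limma called 0 genes of these lists at an adjusted p of 0.05, with 0 at an unadjusted p under 0.05 in the fit without the block.

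Regulators of mitochondrial biogenesis did not share the lower values. Of 23 measured genes, 13 were lower in pair 2 with a median of -0.03, 6 were lower in pair 1 with a median of 0.06, and limma called 0 of them. The coactivator gene Ppargc1a was at 0.13 and 0.14 and the mitochondrial transcription factor gene Tfam at 0.34 and -0.07. Nrf1, which encodes a factor that binds many promoters of respiratory genes, had 323.8 and 483.4 in replicate 1 and 81.06 and 71.86 in replicate 2, at 0.53 and -0.12. Gabpa, an ETS-family factor that also binds such promoters, was at 0.01 and 0.25, and Yy1 at 0.01 and 0.08. The RNA-binding protein genes Slirp and Lrpprc, whose proteins stabilise mitochondrial mRNA as partners, went apart in pair 2, with Slirp at -0.42 and Lrpprc at 0.18.

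Because the members were low together in pair 2, their promoters were searched for the letters these factors are known to bind. RefSeq promoter windows of the build GRCm38.p6, which run from 250 bases before to 50 bases after a start, were found for 75 of the 92 genes. The NRF1 consensus, which reads the same on both strands, was in windows of 6 of the 75 members (8.0%) and of 1.07% of all 27025 genes in the table. With 1 of its centre bases left free, both strands searched, which includes the former, it was in 17 members (22.7%) and 5.19% of all genes. The ETS sequence CCGGAAG was in 19 members (25.3%) against 9.93%, and the YY1 sequence AAGATGGC in 10 members (13.3%) against 3.19%, both strands searched. A match is a description of letters and not a binding site. The 16 measured members with the free-base NRF1 sequence had a pair 2 median of -0.30 and the 55 without it -0.49. Those with CCGGAAG (19 genes) had -0.53 and those without it -0.44. Those with AAGATGGC (10 genes) had -0.56 and those without it (61 genes) -0.45, and none of these differences was tested.

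The 250 bases before the start are shown for 4 members, 3 that were lower in pair 2 and Ndufs5, which was not, with matches to the free-base NRF1 sequence and to CCGGAAG, on either strand, in capitals. These 4 were picked after the values were seen, and Ndufs5 is 1 of the 4 members that were higher in both pairs. Its match is to the free-base form only, as is the NRF1 match of Atp5h, while Atp5k and Cox6a1 hold the full consensus. Whether such matches bear on the differences was not tested. Atp5k lies at chr5:108434400-108434649, Cox6a1 at chr5:115348959-115349208, Atp5h at chr11:115419920-115420169 and Ndufs5 at chr4:123718187-123718436, all on the minus strand and written 5′ to 3′ toward the start.
Atp5k: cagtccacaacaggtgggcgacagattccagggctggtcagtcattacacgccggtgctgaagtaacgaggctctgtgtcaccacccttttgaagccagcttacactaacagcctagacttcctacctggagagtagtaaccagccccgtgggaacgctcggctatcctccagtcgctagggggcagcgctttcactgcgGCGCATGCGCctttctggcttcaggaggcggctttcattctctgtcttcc
Cox6a1: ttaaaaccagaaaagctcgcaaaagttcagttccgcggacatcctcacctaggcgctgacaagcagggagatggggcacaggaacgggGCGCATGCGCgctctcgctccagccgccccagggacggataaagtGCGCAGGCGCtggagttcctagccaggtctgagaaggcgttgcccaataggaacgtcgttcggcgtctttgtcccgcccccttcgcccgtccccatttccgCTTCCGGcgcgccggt
Atp5h: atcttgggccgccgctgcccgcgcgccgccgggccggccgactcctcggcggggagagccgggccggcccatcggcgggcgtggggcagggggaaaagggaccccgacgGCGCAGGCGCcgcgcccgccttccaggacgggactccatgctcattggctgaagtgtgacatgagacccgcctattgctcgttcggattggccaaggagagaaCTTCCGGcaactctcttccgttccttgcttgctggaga
Ndufs5: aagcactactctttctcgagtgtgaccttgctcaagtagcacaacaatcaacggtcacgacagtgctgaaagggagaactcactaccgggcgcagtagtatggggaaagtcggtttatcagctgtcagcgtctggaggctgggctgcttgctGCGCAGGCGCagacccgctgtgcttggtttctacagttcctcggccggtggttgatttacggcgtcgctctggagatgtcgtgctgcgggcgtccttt
In these bases the Atp5k match begins 50 bases before the start, and its pair 2 difference was -0.48. Cox6a1 holds 3 matches, at 162, 117 and 16 bases before the start, the last to the ETS sequence, and was at -0.37. Atp5h holds 2, at 141 and 38 bases, and was at -0.49. Ndufs5 holds 1, at 98 bases, and was at 0.30.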

How the data were processed

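The authors deposited linear signal intensities per probe set, and the submitters' processing notes name MAS5. Its version, scaling target and background setting are not given in the sources used here. Gene symbols came from the platform annotation, and the 932 probe sets with several symbols and 9160 with none were left unnamed. The deposited values were transformed to log2(signal + 32.56), the pseudocount being the 20th percentile of all values, so differences of dim genes are understated. The filter kept the 27022 probe sets whose mean exceeded the 40th percentile of means, among them 159 of the 184 member probe sets and 86 of the 92 member genes. Where a gene had several kept probe sets, the brightest on average stood for it.

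Differences between the groups were tested with limma 3.58.1 under R 4.3.3 (lmFit, then eBayes with its trend option) on the 4 arrays, with no covariate. Benjamini-Hochberg adjustment ran over all kept probe sets. The fit was also run on simulated data, with changes larger than any difference of the members here. That run therefore does not show whether the fit could find differences of the members' size. Its p-values measure only the spread between these arrays, which may be technical, and the number of arrays limits their precision. The labels do not say what a replicate number marks. Arrays with the same number deviated together (correlation of deviations from group means 0.837), and the scale of the values coincides with the number. Within a pair, values, counts and medians are given beside those of all 12581 measured genes. Genes were named where they were over 1.5-fold apart within a pair, at an end of their complex, or an isoform or subunit of a fixed set, with up to 3 genes of each other list, and others after their values were seen. The members and lists were chosen with earlier results of these data known. Of other marker lists, brown fat (1 of 6 genes measured) and red blood cells (1 of 7) gave pair 2 values of 0.05 and -0.31. Alternatives were quantile normalization, a floor of 1, a pseudocount at the 40th percentile, centring each array on its 75th percentile, other filters, averaged or single probe sets, other eBayes settings, the replicate block, a 2-fold threshold and leaving out each array.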

Additional observations from a re-analysis of the deposited data

How the results depend on the processing

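The pair 2 median of the members stayed between -0.49 and -0.41 under all alternatives, and the medians of complexes I to V kept their sign in pair 2 under each. The pair 1 medians lay near 0, and changed sign for complex III when probe sets were averaged (0.02) and for complex IV under quantile normalization (0.00563). The count of members over 1.5-fold lower in pair 2 was 20; it was 35 of 159 when every kept member probe set was counted, and 0 at a 2-fold threshold. In pair 1 the count lower was 0, and 3 with every kept member probe set. The count higher in pair 1 was 1; it was 2 with quantile normalization and with a floor of 1, 3 without a filter and with every kept member probe set, and 0 with the filter at the 60th percentile. limma called 0 member probe sets and 0 of all probe sets in each fit run, with the replicate number as a block and without each array in turn (0 to 0) included; at an unadjusted p under 0.05 the replicate block gave 12 members and the fits without an array gave 0. Leaving out an array removes its pair, so within-pair values have no such alternative. Of alternative values for single named genes, 424 moved by less than 1 SD of the 2 pairs and 16 by more, and 0 of the values over 1.5-fold apart changed sign. That SD is wide where the pairs of a gene differ, and the members' median gap, pair 2 minus pair 1, was -0.43. The count of 424 therefore says little about how stable the values are. With averaged probe sets Sdha turned to -0.01 in pair 2, and Uqcrc2 to 0.05 in pair 1. Depth has no measure in these files; the 6 member genes below the filter are limited by dim signal.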

Other observations

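Other mitochondrial gene families differed in how far they followed the respiratory chain genes. Of 76 measured genes of mitochondrial ribosomal proteins, which translate the subunits encoded in mitochondrial DNA, 74 were lower in the knockout array of pair 2 (median log2 -0.30), against 44 lower in pair 1 (median -0.02). Of 22 genes of the import translocases, which bring nuclear-encoded subunits into the organelle, 21 were lower in pair 2 (median -0.32) and 13 in pair 1 (median -0.03). The 37 genes of mitochondrial solute carriers had pair 2 and pair 1 medians of -0.03 and -0.03. The vacuolar ATPase, a proton pump outside mitochondria, had 14 of 16 subunit genes lower in pair 2 (median -0.25) and 6 in pair 1 (median 0.12). These families were chosen after values were seen, and no test was run on them.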
